A study of Mus musculus with 6 samples.

Results

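The nuclear genes of the respiratory chain and of ATP synthase were examined in fasted livers with and without Lkb1. A gene was taken as a member when the array annotation gave its probe set 1 symbol and that symbol began with Nduf, Uqcr, Atp5, or Cox followed by 4 to 8, or was Sdha, Sdhb, Sdhc or Sdhd. The brightest probe set (the group of probes that reports 1 transcript) stood for each gene. The rule found 89 of the 19938 genes measured, and used no measured difference between the groups. There were 36 genes named for complex I, 7 complex I assembly factors of the Ndufaf family, 4 of complex II, 8 of complex III, 17 of complex IV and 17 of complex V. A further 6 probe sets, those for Cox7c and Ndufb4 and a second one for Ndufs5, carried several symbols and were left out.

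The arrays measured liver RNA from 3 Lkb1KOlivad mice (KO), numbered B253, B304 and B305, and 3 WT mice, numbered B256, B267 and B302, on an array each. All were female in the labels. The methods describe adult Lkb1 fl/fl animals on the FVB/N background that received tamoxifen: the KO mice carried TTR-CreTam, an inducible Cre driven by the hepatocyte-specific transthyretin promoter, and the WT mice were their Cre-negative littermates, so that both groups carried the floxed alleles. The fasted state comes from the paper and is not in the labels. Because the Cre acts in hepatocytes, the other cells of the liver keep Lkb1, and whole liver was measured, in which fewer cells of a type and less RNA per cell cannot be told apart.

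The respiratory chain moves electrons from NADH (complex I) and succinate (complex II) through complexes III and IV to oxygen and pumps protons across the inner mitochondrial membrane, and ATP synthase (complex V) uses the return of the protons to make ATP. A few core subunits are encoded in mitochondrial DNA and all others in the nucleus, so that each complex except complex II needs both genomes. In hepatocytes this machinery oxidizes the NADH and FADH2 from fatty acid oxidation and supplies ATP for gluconeogenesis and urea synthesis. Lkb1 is the upstream kinase of Ampk, which is known to act on the coactivator Ppargc1a and on mitochondrial biogenesis.

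Stk11, which encodes Lkb1, had log2 signals of 6.52, 6.42 and 6.48 in KO mice B253, B304 and B305, against 8.24, 8.13 and 7.96 in WT mice B256, B267 and B302. The groups did not overlap (log2 fold change of -1.64, SE 0.12, adjusted p = 0.00705 from limma), and Stk11 was the 1 gene of 19938 that passed. The 9 measured hepatocyte markers had mean log2 signals of 9.74 to 12.6 and the 6 striated muscle markers of 4.20 to 5.83. The array of WT mouse B302 stood apart: over all probe sets it correlated at 0.973 to 0.975 with the others, whose correlations with each other were 0.980 to 0.987. The array medians lay between 5.03 and 5.08.

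The promoters of several members carry the binding letters of factors known for nuclear mitochondrial genes, and 5 are shown here, 1 from each complex, because the results describe the members behind them: Ndufs5, the member with the most variable signal; Sdhd, with the highest fold change of complex II; Uqcrc1, with the lowest of complex III; Cox6a1, a ubiquitous subunit whose signal varied little; and Atp5g3, whose groups did not overlap. Each is a window of 300 bases from RefSeq (build GRCm38.p6), from 250 bases before the annotated start to 50 bases after it, written 5′ to 3′ on the strand of the gene. They lie at chr4:123718137-123718436 (minus strand), chr9:50603800-50604099 (minus), chr9:108936398-108936697 (plus), chr5:115348909-115349208 (minus) and chr2:73911277-73911576 (minus). Capitals mark matches to the motifs of NRF1 (CGCNTGCGC), GABPA (CCGGAAG) and YY1 (AAGATGGCG), searched on both strands.
Ndufs5: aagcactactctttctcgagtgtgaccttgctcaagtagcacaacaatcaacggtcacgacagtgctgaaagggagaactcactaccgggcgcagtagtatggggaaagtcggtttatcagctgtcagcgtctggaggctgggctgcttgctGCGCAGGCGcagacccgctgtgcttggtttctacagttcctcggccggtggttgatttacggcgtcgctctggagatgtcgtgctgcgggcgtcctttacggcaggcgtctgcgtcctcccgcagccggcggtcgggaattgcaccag
Sdhd: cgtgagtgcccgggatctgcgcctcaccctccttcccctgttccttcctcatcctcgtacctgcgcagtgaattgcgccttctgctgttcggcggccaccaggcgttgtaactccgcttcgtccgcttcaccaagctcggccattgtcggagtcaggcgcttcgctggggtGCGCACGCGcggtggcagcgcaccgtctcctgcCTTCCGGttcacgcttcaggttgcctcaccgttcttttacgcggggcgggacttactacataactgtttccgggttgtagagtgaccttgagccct
Uqcrc1: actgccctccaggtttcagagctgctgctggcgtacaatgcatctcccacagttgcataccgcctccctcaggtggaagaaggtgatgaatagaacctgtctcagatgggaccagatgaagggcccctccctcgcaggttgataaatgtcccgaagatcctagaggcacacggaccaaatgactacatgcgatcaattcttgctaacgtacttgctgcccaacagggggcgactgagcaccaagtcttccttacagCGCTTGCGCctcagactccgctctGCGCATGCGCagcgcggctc
Cox6a1: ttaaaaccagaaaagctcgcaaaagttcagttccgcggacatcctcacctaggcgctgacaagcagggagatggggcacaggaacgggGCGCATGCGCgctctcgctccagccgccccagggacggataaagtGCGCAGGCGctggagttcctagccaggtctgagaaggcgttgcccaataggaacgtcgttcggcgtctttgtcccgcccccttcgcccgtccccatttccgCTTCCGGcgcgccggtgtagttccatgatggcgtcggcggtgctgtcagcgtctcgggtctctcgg
Atp5g3: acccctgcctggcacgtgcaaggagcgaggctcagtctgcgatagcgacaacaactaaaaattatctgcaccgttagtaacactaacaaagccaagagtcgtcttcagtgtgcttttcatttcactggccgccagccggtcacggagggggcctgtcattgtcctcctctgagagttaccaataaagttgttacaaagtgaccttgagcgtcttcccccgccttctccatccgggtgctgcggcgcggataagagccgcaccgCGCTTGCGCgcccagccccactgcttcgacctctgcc

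Promoter windows were found for 73 of the 89 members, 78 windows in all. The NRF1 letters were in 22 of the 78 windows (28.2%) and in 6.25% of all 32851 windows of this length. The GABPA letters were in 18 (23.1%, against 8.86% of all windows) and the YY1 letters in 7 (8.97%, against 1.40% of all windows). At least 1 of these 3 was in 39 of the members' windows (50.0%) and in 14.8% of all windows, whereas TATAAA, the letters of a TATA box, was in 11.5% and 13.6%. The members' windows had a median GC content of 58.0% and all windows of 52.7%, and the NRF1 and GABPA letters are rich in G and C. A match of this kind is a description of the sequence and no measured binding site. The genes of the factors themselves differed between the groups by less than the SE of the difference: Nrf1 had a log2 fold change of -0.02 (SE 0.13), Gabpa of 0.08 (SE 0.12) and Yy1 of 0.10 (SE 0.11).

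No gene of the respiratory chain or ATP synthase passed the test between the KO and WT livers. By limma with Benjamini-Hochberg adjustment over all 19938 genes, 0 of the 89 members passed an adjusted p under 0.05 (0.00502% of all genes did), and the smallest adjusted p was 0.9997. At an unadjusted p under 0.05, 0 members were higher and 0 were lower, where 1.52% of all genes were higher and 1.51% lower. The methods' t-test on the same values also gave 0 members at either threshold. The KO and WT mice overlapped for 86 of the 89 members. Ndufaf2 and Atp5g3 lay higher in every KO mouse than in any WT mouse (2.25% of the members, against 3.46% of all genes), and Cox8c lay lower (1.12%, against 3.70% of all genes).

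The log2 fold changes of the members, KO over WT, lay between -0.17 and 0.44, with a median of 0.03 (1.02-fold), beside a median of 0.00 over all genes tested. Of the 89 members, 61 (68.5%) had a value above 0, beside 51.6% of all genes. The medians by complex were 0.03 for complex I, 0.09 for its assembly factors, 0.06 for complex II, 0.02 for complex III, 0.03 for complex IV and 0.07 for complex V. Each of these medians changed when single mice were left out. Without WT mouse B302 they were 0.10 for complex I, 0.10 for its assembly factors, 0.10 for complex II, 0.08 for complex III, 0.07 for complex IV and 0.15 for complex V. Without WT mouse B267 those of complexes IV and V were -0.01 each, without KO mouse B305 those of complexes I, III and IV were -0.01, 0.00 and 0.01, without KO mouse B253 that of complex II was 0.00, and without WT mouse B256 those of complex I, the assembly factors and complex II were 0.00, 0.17 and 0.12. The pooled SD of a single gene between mice of 1 group had a median of 0.19 over the members and of 0.17 over all genes. A median over many genes varies less than 1 gene does. The median deviation of the members from their WT mean ran from 0.00 to 0.11 in single KO mice and from -0.08 to 0.10 in single WT mice. The number of members above 0 rested on the scaling and on single mice: with quantile normalization the median was -0.01 with 39 members above 0, without WT mouse B267 it was 0.00 with 45 members, and without WT mouse B302 it was 0.09 with 70 members. Single members depended on B302 as well: of the 31 members named by rule, 6 with a value above 0 had one below 0 without it (Sdha -0.17, Ndufs1 -0.13, Atp5a1 -0.06, Uqcrc2 -0.06, Atp5b -0.02 and Uqcrfs1 -0.01), and 6 with a value below 0 had one above 0 (Atp5md 0.17, Ndufa5 0.10, Sdhb 0.07, Ndufa4l2 0.07, Cox8b 0.02 and Uqcrc1 0.01), while Ndufs5 had 0.10 and Cox5b 0.33.

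**Figure D1:**
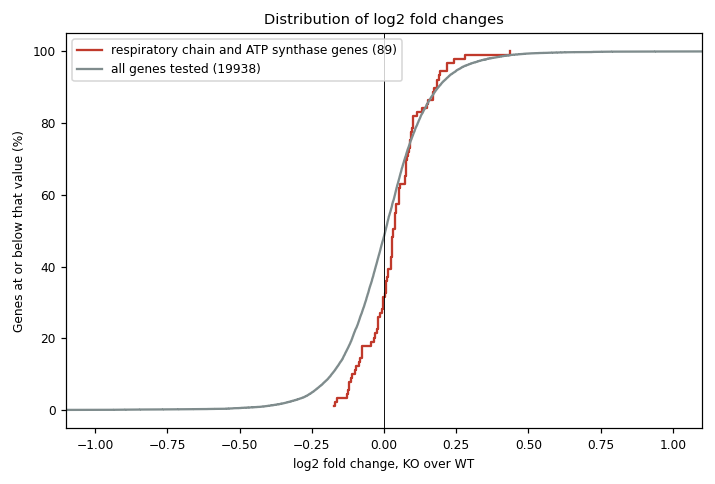
Cumulative share of genes (y axis, %) by log2 fold change of KO over WT (x axis) for the 89 respiratory chain and ATP synthase genes and for all 19938 genes tested (values beyond the axis limits are counted but not drawn). The members' curve is steeper than that of all genes and crosses 0 with 61 of its genes to the right.

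The 95% intervals show what sizes of change the arrays leave possible. For 79 of the 89 members the whole interval lay within a 1.5-fold change in either direction, and for 88 within a 2-fold change; the exception was Ndufs5. All 8 members of complex III and all 17 of complex IV stayed within 1.5-fold, as did 15 of 17 in complex V, 30 of 36 in complex I, 6 of 7 assembly factors and 3 of 4 in complex II. Leaving out Ndufs5, the lowest limit was 0.574-fold (Atp5md) and the highest 1.70-fold (Sdhd). These are the outermost limits among the other members and not typical ones. At the median over the members, the interval reached 0.33 on the log2 scale to either side of the estimate. With 3 arrays in each group, a smaller difference in such a member could not be told from 0 at the unadjusted threshold. The adjusted threshold needed a larger one.

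**Figure D2:**
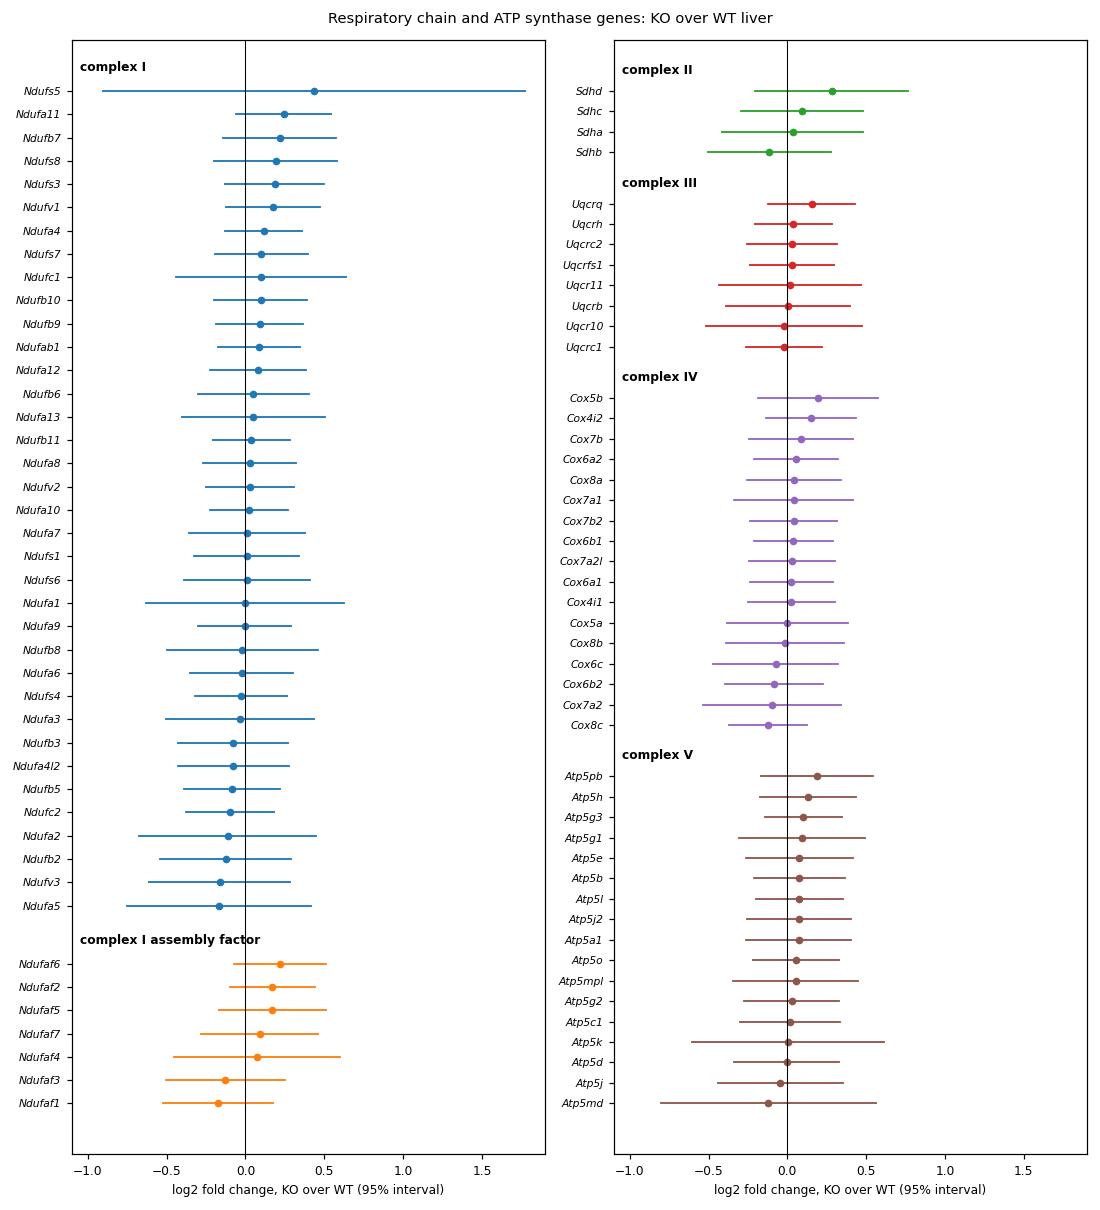
Log2 fold change of KO over WT (x axis) of each of the 89 genes, with its 95% interval from limma, grouped by complex and ordered by value within a complex (3 KO and 3 WT mice). Every interval contains 0, and that of Ndufs5, from -0.90 to 1.77, is the widest.

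In complex I the core subunits that carry electrons had overlapping groups. Ndufs1, the large iron-sulfur subunit, had log2 signals of 8.81, 9.05 and 9.00 in KO mice B253, B304 and B305, against 9.12, 9.04 and 8.68 in WT mice B256, B267 and B302. The KO values lay within the range of the WT values, with a log2 fold change of 0.01 (SE 0.15, 95% interval -0.33 to 0.34). Ndufv1, which binds NADH and FMN, had 8.78, 8.71 and 8.63 in KO mice, against 8.74, 8.47 and 8.38 in WT mice. Here WT mouse B256 lay among the KO mice and the other WT mice below them (log2 fold change of 0.17, SE 0.13, two-sided exact permutation p = 0.3). Among the supernumerary subunits, which surround the core, Ndufa11 had the smallest unadjusted p of all members: 8.88, 8.82 and 9.14 in KO mice, against 8.71, 8.57 and 8.82 in WT mice. Its highest WT value and its lowest KO value were both 8.82, and its log2 fold change was 0.24 (SE 0.13, unadjusted p = 0.10 and adjusted p = 0.9997 from limma). Ndufa11 was not among the genes that the rule for naming took and was named after its values were seen. The lowest value in complex I was that of Ndufa5, another supernumerary subunit, with 8.38, 8.78 and 9.02 in KO mice, against 8.45, 8.80 and 9.44 in WT mice. Its signals ran over a similar range in both groups, with the highest in WT mouse B302 (log2 fold change of -0.17, SE 0.26). With the mouse numbers as a block, described below, its log2 fold change was -0.39 (SE 0.15, unadjusted p = 0.034 and adjusted p = 0.964 from limma).

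Ndufs5, a small supernumerary subunit of complex I, split the mice in a way that crossed the genotypes. Its log2 signal was 6.84 in KO mouse B253 and 8.59 and 8.65 in KO mice B304 and B305, against 8.81 in WT mouse B256 and 7.04 and 6.92 in WT mice B267 and B302. The KO mice thus held 1 low and 2 high values and the WT mice 1 high and 2 low ones, with no value between 7.04 and 8.59. The log2 fold change of 0.44 (SE 0.59, exact permutation p = 1.0) was the highest of complex I, with the largest SE of all members. Its pooled SD of 1.04 was exceeded by 0.11% of all genes. The second probe set that names Ndufs5, which also names the pseudogene Ndufs5-ps, had 8.10, 8.49 and 8.77 in KO mice B253, B304 and B305, against 8.44, 8.56 and 8.71 in WT mice B256, B267 and B302. It showed no such split: WT mouse B256, the highest on the first probe set, lay here below every mouse but KO mouse B253, which was low on both. Without mice B253 and B256, a choice made after seeing the data, the Ndufs5 difference was 1.64, since the 2 mice that crossed the genotypes were those left out. It is given without its p-value for that reason, and its place in the counts of the closing section is no evidence. What sets the Ndufs5 signal of single mice was not tested.

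**Figure D3:**
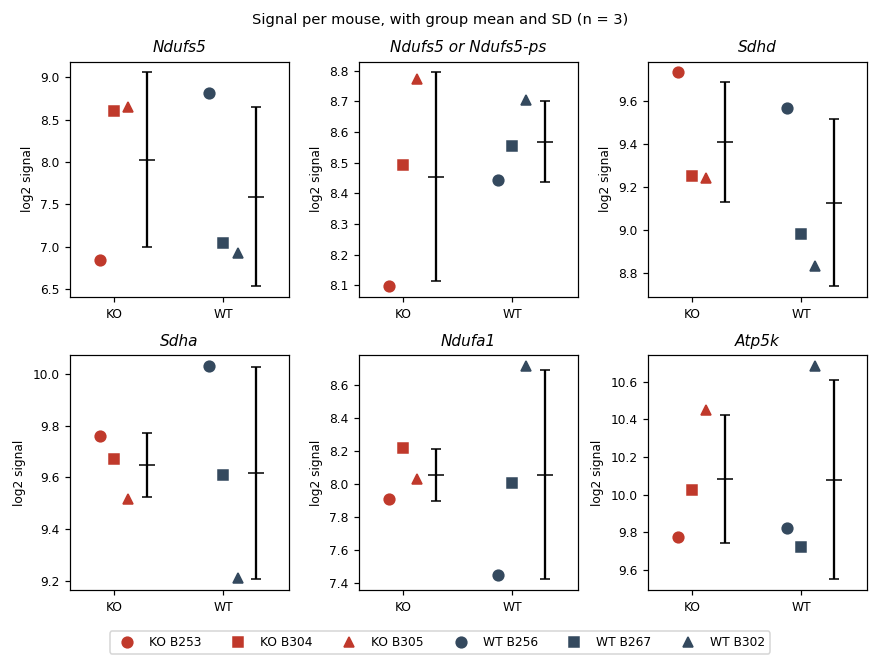
Log2 signal (y axis) in each of the 3 KO and 3 WT mice, marked by mouse, for Ndufs5, for the probe set that names both Ndufs5 and Ndufs5-ps, and for Sdhd, Sdha, Ndufa1 and Atp5k; the black bars give each group's mean and SD, and each panel has its own axis. For Ndufs5, KO mouse B253 at 6.84 stands with WT mice B267 and B302, and WT mouse B256 at 8.81 with the other KO mice.

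The assembly factors of the Ndufaf family build complex I but are not part of it, and their median of 0.09 was the highest of the groups. Ndufaf2, a chaperone of late assembly, had 7.62, 7.59 and 7.70 in KO mice, against 7.58, 7.50 and 7.32 in WT mice. All KO values lay above all WT values, with 7.59 as the lowest of KO and 7.58 as the highest of WT (log2 fold change of 0.17, SE 0.12, exact permutation p = 0.1, the smallest that 3 against 3 mice can give, two-sided). Ndufaf6 had 5.68, 5.86 and 5.99 in KO mice, against 5.60, 5.76 and 5.52 in WT mice, and WT mouse B267 lay above KO mouse B253 (log2 fold change of 0.22, SE 0.13). Ndufaf1, which acts early in assembly, was at the other end, with 7.27, 7.20 and 6.93 in KO mice, against 7.24, 7.56 and 7.12 in WT mice (log2 fold change of -0.17, SE 0.15).

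Complex II, which is also the succinate dehydrogenase of the Krebs cycle, is the 1 complex with no subunit from mitochondrial DNA. Sdhd, which anchors it in the membrane, had 9.73, 9.25 and 9.24 in KO mice, against 9.57, 8.98 and 8.83 in WT mice. The higher values came from KO mouse B253 and WT mouse B256, and the other KO mice lay above the other WT mice (log2 fold change of 0.28, SE 0.21, 95% interval -0.21 to 0.77). Some alternatives brought Sdhd past the unadjusted threshold. Without WT mouse B256 its log2 fold change was 0.50, and with the mouse numbers as a block it was 0.44. With B253 and B256 set against the other mice as a block, it stayed at 0.28. Limma gave unadjusted p = 0.025, 0.033 and 0.038 (adjusted 0.999, 0.964 and 0.9995), and the exact permutation test (all 6 mice) p = 0.4. The block of B253 and B256 was chosen after seeing the data. It is no evidence for Sdhd, since it takes up the spread from its highest KO and WT mice. Leaving out B256 removes its highest WT mouse, so these passes do not add up to support. Sdha, the flavoprotein that oxidizes succinate, had 9.76, 9.67 and 9.51 in KO mice, against 10.03, 9.61 and 9.21 in WT mice. Both its highest and its lowest signal belonged to WT mice (log2 fold change of 0.03, SE 0.20). Sdhb, the iron-sulfur subunit, had 8.45, 8.37 and 8.68 in KO mice, against 8.43, 8.44 and 8.97 in WT mice (log2 fold change of -0.11, SE 0.17). Sdhc, the other anchor, had 8.70, 8.38 and 8.61 in KO mice, against 8.28, 8.31 and 8.82 in WT mice (log2 fold change of 0.09, SE 0.17). The 4 subunits therefore did not rank the mice in 1 order: WT mouse B302 was the lowest of all 6 mice for Sdha and Sdhd and the highest for Sdhb and Sdhc.

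Complex III had the narrowest range, with log2 fold changes from -0.02 to 0.15 over its 8 members. Uqcrc1, a core protein facing the matrix, had 7.55, 7.57 and 7.60 in KO mice, against 7.58, 7.54 and 7.66 in WT mice. Its 6 values hardly differed (log2 fold change of -0.02, SE 0.11, 95% interval -0.26 to 0.22). The second core protein Uqcrc2 had a log2 fold change of 0.03 (SE 0.13) and the Rieske iron-sulfur protein Uqcrfs1, which passes electrons to cytochrome c1, of 0.03 (SE 0.12). Uqcrq, a small subunit, had the highest value, with 9.48, 9.36 and 9.43 in KO mice, against 9.43, 9.15 and 9.24 in WT mice (log2 fold change of 0.15, SE 0.12). WT mouse B256 again lay among the KO mice. The median of complex III was 0.06 without KO mouse B304.

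In complex IV, cytochrome c oxidase, Cox5b had the highest value. This subunit had 10.36, 10.77 and 10.71 in KO mice, against 10.26, 10.30 and 10.70 in WT mice, and WT mouse B302 lay with KO mouse B305 (log2 fold change of 0.19, SE 0.17). Cox4i1, the regulatory subunit of most tissues, had 10.98, 10.84 and 10.89 in KO mice, against 11.01, 10.72 and 10.91 in WT mice (log2 fold change of 0.02, SE 0.12). Cox5a had 8.88, 9.20 and 9.56 in KO mice, against 9.22, 9.21 and 9.22 in WT mice. Its means were 9.21 in KO and 9.22 in WT mice (log2 fold change of 0.00, SE 0.17), while the KO mice spread more widely (SD of 0.34 in KO and 0.0059 in WT mice, n = 3 each). Cox6a1, whose promoter is printed above and which was named for that and not by the rule, had 11.31, 11.28 and 11.45 in KO mice, against 11.29, 11.25 and 11.42 in WT mice, nearly the same set of values (log2 fold change of 0.03, SE 0.11). Ndufa4, which is named for complex I and now counted with complex IV, had a log2 fold change of 0.12 (SE 0.11).

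Several members of these families are isoforms known from other tissues, and their probe sets were dim in liver. Of the 89 members, 6 had a mean log2 signal under 5: Cox4i2, Cox7a1, Cox7b2, Cox8b, Cox8c and Ndufa4l2. Cox8c, an isoform known from testis, was the 1 member that lay lower in every KO mouse, with 4.30, 4.45 and 4.46 in KO mice, against 4.54, 4.52 and 4.51 in WT mice. The gap between the groups was small (log2 fold change of -0.12, SE 0.11, exact permutation p = 0.1), and the arrays carry no detection call that would say whether the probe set was above background. Cox4i2, known from lung, had a log2 fold change of 0.15 (SE 0.13), the heart and muscle isoforms Cox7a1, Cox8b and Cox6a2 of 0.04, -0.01 and 0.05 (SE 0.17, 0.17 and 0.12), and the testis isoforms Cox6b2 and Cox7b2 of -0.08 and 0.04 (SE 0.14 and 0.12). Ndufa4l2, known to be induced by hypoxia, had a log2 fold change of -0.08 (SE 0.16). Leaving out the 6 dim members left the median at 0.03.

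In complex V the catalytic subunits had overlapping groups. Atp5b, the catalytic beta subunit, had 11.70, 11.60 and 11.65 in KO mice, against 11.73, 11.60 and 11.38 in WT mice (log2 fold change of 0.08, SE 0.13). Atp5a1, the alpha subunit, had 10.94, 10.87 and 10.87 in KO mice, against 11.08, 10.82 and 10.56 in WT mice (log2 fold change of 0.07, SE 0.15). For both, the WT mice took the highest and the lowest place. Atp5g3 encodes the ring subunit c, through which the protons pass, as do Atp5g1 and Atp5g2, which give the same mature protein. It had 12.00, 11.94 and 11.94 in KO mice, against 11.92, 11.89 and 11.78 in WT mice. These did not overlap, but the difference was small (log2 fold change of 0.10, SE 0.11, 95% interval -0.14 to 0.35, exact permutation p = 0.1), and Atp5g1 and Atp5g2 had values of 0.09 (SE 0.18) and 0.03 (SE 0.13) with overlapping groups. Atp5pb, the b subunit of the stalk, had the highest value of the complex, with 10.42, 10.51 and 10.74 in KO mice, against 10.50, 10.54 and 10.09 in WT mice (log2 fold change of 0.18, SE 0.16), and without WT mouse B302, the lowest, its log2 fold change was 0.04. Atp5md, a small membrane subunit, had the lowest, with 8.94, 9.35 and 9.82 in KO mice, against 8.96, 9.42 and 10.08 in WT mice (log2 fold change of -0.12, SE 0.30), and both groups ran over about the same range.

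The median level of the members differed by more between mice of 1 genotype than between the genotypes. The deviation of each member from its WT mean had a median of 0.00, 0.01 and 0.11 over the 89 members in KO mice B253, B304 and B305, against -0.03, -0.08 and 0.10 in WT mice B256, B267 and B302. KO mouse B305 and WT mouse B302 were thus alike and high, and over all genes the same medians lay between -0.02 and 0.02. KO mouse B305 was the highest KO mouse for 49 of 89 members (55.1%, beside 27.4% of all genes) and WT mouse B302 the highest WT mouse for 52 (58.4%, beside 38.4% of all genes). WT mouse B267 was the highest WT mouse for 9 members (10.1%, beside 28.8% of all genes). The SD was larger in WT than in KO mice for 61 members (68.5%, beside 56.7% of all genes). These shares describe 6 animals, and the members of 1 mouse share its array.

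**Figure D4:**
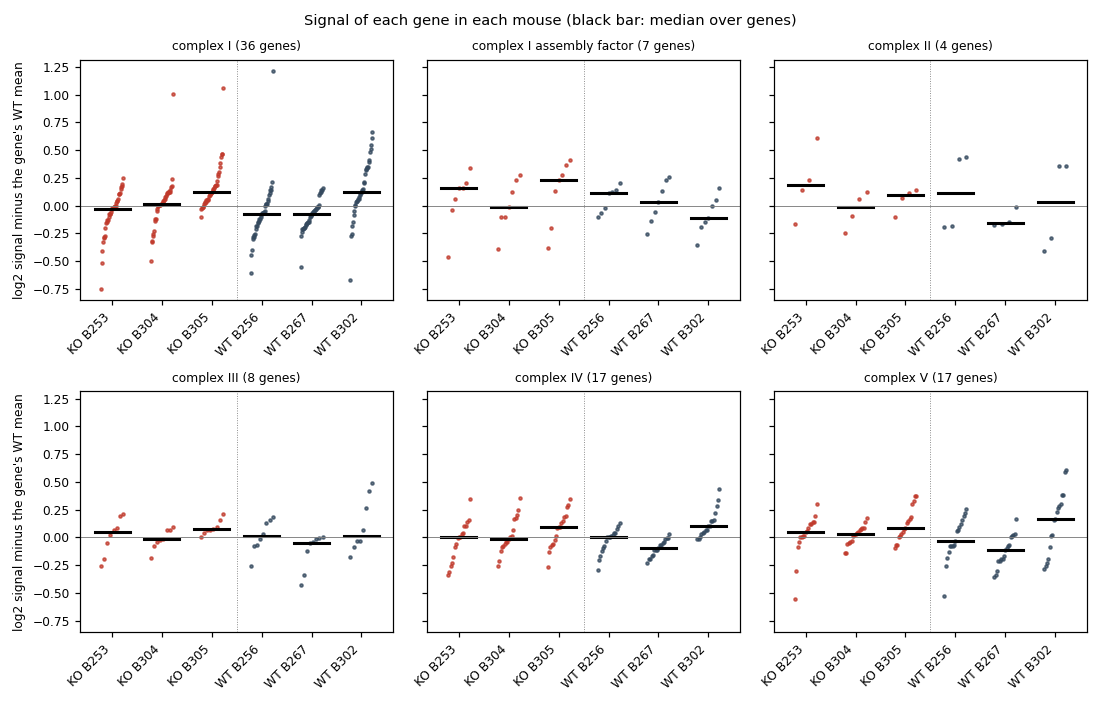
Log2 signal of each gene minus its mean over the 3 WT mice (y axis) in each mouse, with a point for every gene and a black bar for the median of each complex. In complex I the bars of KO mouse B305 (0.12) and WT mouse B302 (0.12) are the highest, and the points of B302 spread to both sides of 0.

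WT mouse B302 did not lie to 1 side for all members. It exceeded the mean of the other WT mice by more than 0.5 on the log2 scale for 19 members and lay below it by more than 0.5 for 3. Among the members with the largest excess were Ndufa1 (0.99), Ndufa2 (0.92), Atp5k (0.91), Atp5md (0.89), Ndufa5 (0.82), Ndufa3 (0.77), Uqcr10 (0.74) and Ndufa13 (0.73), and the 19 also held Sdhb (0.54) and Sdhc (0.53). Below the other WT mice, after Ndufs5, lay Sdha (-0.61), Ndufaf7 (-0.53), Sdhd (-0.44), Atp5pb (-0.43), Ndufs1 (-0.40), Atp5a1 (-0.39), Ndufs3 (-0.38) and Atp5c1 (-0.35). These members were named after the values were seen, and both directions held subunits of several complexes. Atp5k, the e subunit of ATP synthase, had for example 9.78, 10.02 and 10.45 in KO mice, against 9.83, 9.72 and 10.69 in WT mice. Ndufa1, needed for complex I assembly, had 7.91, 8.22 and 8.03 in KO mice, against 7.45, 8.01 and 8.72 in WT mice. Both had a difference between the groups of 0.00 (SE 0.27 and 0.28). The SD of Atp5k was 0.34 in KO and 0.53 in WT mice and that of Ndufa1 0.16 in KO and 0.64 in WT mice (n = 3 each). RNA quality was not measured in the files, and its part in the pattern of B302 was not tested.

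The mouse numbers form a first series (KO mouse B253, WT mice B256 and B267) and a second (KO mice B304 and B305, WT mouse B302), which the labels do not explain. Within the first, the median log2 difference of the members was 0.05, and within the second it was -0.05, with 1 mouse on 1 side of each comparison. With the series as a block the median was 0.02 with 48 members above 0. Of the 89 members, 1 was higher (Sdhd) and 1 lower (Ndufa5) at an unadjusted p under 0.05, while 0 passed the adjusted threshold. Without the block, 1.52% of all genes were higher and 1.51% lower at that unadjusted threshold. The shares with the block are not given here, so these counts have no matching background and are not read as a result. By complex, the within-series medians were 0.04 and -0.04 for complex I, 0.01 and 0.29 for its assembly factors, 0.21 and 0.03 for complex II, 0.04 and -0.02 for complex III, 0.05 and -0.05 for complex IV, and 0.09 and -0.12 for complex V. The sign thus differed between the series for complexes I, III, IV and V.

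For the 17 members with several probe sets of a single symbol, the log2 fold changes of the probe sets spanned 0.08 at most, with a median span of 0.04, and only Uqcr11 and Uqcrb had probe sets of both signs, all near 0. Atp5l had 6 probe sets with values from 0.08 to 0.10, and Ndufb11 had 2, with values of 0.04 and 0.10. With the mean of all probe sets in place of the brightest, the median over the members stayed at 0.03. The probe sets with several symbols had differences of 0.01 to 0.04 for Cox7c, of -0.02 and -0.01 for Ndufb4 and of -0.11 for Ndufs5 with Ndufs5-ps, KO minus WT. For Ndufs5 this had the opposite sign to the 0.44 of the probe set with 1 symbol.

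The other genes of the pathway were described by lists. Of 20 measured regulators of mitochondrial gene expression, 15 had a value above 0, with a median of 0.11, and 0 had an unadjusted p under 0.05. Among them Ppargc1a, the coactivator of mitochondrial biogenesis and of fasting gene expression, had 8.24, 9.23 and 9.24 in KO mice, against 8.33, 8.22 and 8.48 in WT mice. KO mice B304 and B305 were high, and KO mouse B253 lay among the WT mice (log2 fold change of 0.56, SE 0.25, unadjusted p = 0.055, adjusted p = 0.9997 from limma). Prkaa1, a catalytic subunit of Ampk, had a value of -0.27 (SE 0.17) and Tfb2m, a mitochondrial transcription factor, of 0.23 (SE 0.15). Of 12 measured enzymes of the Krebs cycle other than complex II, 10 had a value above 0 (median of 0.09) and 0 had an unadjusted p under 0.05. Fh1, the fumarase, had 11.08, 10.81 and 10.82 in KO mice, against 10.78, 10.28 and 10.76 in WT mice, and did not overlap (log2 fold change of 0.30, SE 0.16, exact permutation p = 0.1). It was the 1 of the 12 that lay higher without overlap, where 3.46% of all genes did.

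Of 40 measured assembly factors of the chain outside the Ndufaf family, 2 were higher and 1 was lower at an unadjusted p under 0.05 (1.52% of all genes were higher and 1.51% lower), with a median of 0.04, and 0 passed the adjusted threshold. Coa3, a factor of complex IV assembly, had 7.93, 7.79 and 7.78 in KO mice, against 7.68, 7.48 and 7.19 in WT mice (log2 fold change of 0.39, SE 0.14, unadjusted p = 0.027). The other 2 were both assembly factors of complex II and went opposite ways: Sdhaf2, which helps FAD attach to Sdha, had 6.94, 6.92 and 6.73 in KO mice, against 6.58, 6.65 and 6.45 in WT mice (log2 fold change of 0.30, SE 0.12, unadjusted p = 0.034). Sdhaf1, which serves the iron-sulfur clusters of Sdhb, had 6.36, 6.17 and 6.26 in KO mice, against 6.42, 6.74 and 6.78 in WT mice (log2 fold change of -0.39, SE 0.13, unadjusted p = 0.019). The groups did not overlap for any of the 3, and the adjusted p from limma was 0.9997 for each. Of the 40, 3 lay higher and 2 lower without overlap, where 3.46% of all genes lay higher and 3.70% lower. Of 77 genes of mitochondrial ribosomal proteins, 41 were above 0 (median of 0.01) and 1, Mrps25, was lower at the unadjusted threshold, with overlapping groups (log2 fold change of -0.60, SE 0.23, unadjusted p = 0.029). The 14 measured genes of the mobile carriers, among them Cycs and the enzymes of coenzyme Q synthesis, had a median of 0.04 and 0 genes at the unadjusted threshold. Of the subunits from mitochondrial DNA, 2 were measured: ND3 had a value of -0.07 (SE 0.11) and COX2 of 0.06 (SE 0.12).

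Markers of other cell types were measured in the same livers. The 10 markers of stellate cells and fibroblasts all had values below 0 (9654 of all 19938 genes did), with a median of -0.25. Their mean log2 signal lay between 5.84 and 5.98 in KO mice and between 6.07 and 6.31 in WT mice, without overlap. For the 10 sinusoidal endothelial markers 2 were above 0 (median of -0.17, mean signals of 6.83 to 6.98 in KO and 6.85 to 7.28 in WT mice), and likewise 2 of the 10 Kupffer cell and macrophage markers (median of -0.16, 6.94 to 7.27 in KO and 6.84 to 7.51 in WT mice). The 9 hepatocyte markers had a median of 0.02, with mean signals of 11.73 to 11.87 in KO and 11.61 to 11.98 in WT mice. None of these markers passed the adjusted threshold. At the unadjusted one, 2 stellate markers, Lrat and Rgs5, and Nkg7 of the T and NK list were lower, while Cd79a of the B cell list was higher. Over all genes, 1.51% were lower and 1.52% higher. The 5 cholangiocyte, 5 T and NK, 3 B cell and 2 red blood cell markers had medians of 0.00, -0.16, -0.02 and -0.10. The part of cell composition in the members' values was not tested.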

How the data were processed

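Liver RNA of 3 KO and 3 WT mice was measured on Affymetrix mouse gene arrays. The authors deposited log2 RMA signals for 35556 probe sets, used here without further normalization. The labels credit RMA and Partek, whereas Expression Console and BRB-ArrayTools stand in the methods; the versions were not stated. RMA fits the arrays to 1 common distribution of probe signals, which would remove a shift shared by most genes. Labels and methods also differ in the labelling kit (NuGEN in the labels, Affymetrix in the methods), and the probe annotation belongs to an older generation of array than the methods name.

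Of the probe sets, 21789 had 1 symbol, 1621 had several and 12146 had none; symbols were updated by gene identifier (21698 found, and all 89 members). The brightest probe set of each gene gave 19938 genes, with no filter on signal. KO and WT were compared in R 4.3.3 with limma 3.58.1 (lmFit, then eBayes) by a two-sided test without covariates; p-values were adjusted over every gene by Benjamini-Hochberg, with a threshold of 0.05. With 3 against 3 mice the exact permutation test cannot go below p = 0.1. The fit was tested on simulated data. Plots were made in Python 3.11.15 with matplotlib 3.10.9. The number of arrays limits the precision.

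Groups came from the genotype labels, and replicate numbers follow accession order and pair no mice. Nothing says how the mice were caged or processed together, so p-values measure the spread between these animals. The members and the gene lists were chosen with earlier results of these data known. The genes named were each member at an unadjusted p under 0.05 or with groups that did not overlap, the highest and lowest of each complex, all of complex II, core subunits, tissue isoforms, and up to 3 of each other list. The alternatives were quantile normalization, centring of arrays, leaving out genes with a mean log2 signal under 5, the mean of probe sets, an eBayes fit that was robust with a trend on signal, weights for arrays, the methods' t-test, the series of mouse numbers as a block and leaving out each mouse, and, added after seeing the data, leaving out B253 and B256 or setting them as a block.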

Additional observations from a re-analysis of the deposited data

How the results depend on the processing

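The count of members at an adjusted p under 0.05 was 0 under all 16 alternatives. At an unadjusted p under 0.05 the main count was 0 higher and 0 lower, where 1.52% of all genes were higher and 1.51% lower. With the series of mouse numbers as a block there was 1 higher (Sdhd) and 1 lower (Ndufa5). With B253 and B256 set against the other mice as a block there was 1 higher (Sdhd). Without B253 and B256 there were 2 higher (Ndufs5 and Ndufaf4). The shares of all genes above belong to the main fit. Those of the alternatives are not given here, so the counts under the alternatives have no matching background. The settings that single out B253 and B256 were both chosen after seeing the data. Leaving them out holds no evidence for Ndufs5, since it removes the 2 mice whose Ndufs5 values crossed the genotypes. Nor does it for Ndufaf4, since it removes its lowest mouse, KO mouse B253 (8.79), and its highest WT mouse, B256 (9.46). The block of B253 and B256 holds none for Sdhd, since they were its highest KO and WT mice. Leaving out each mouse in turn gave 0 to 1 higher, the 1 being Sdhd without B256, its highest WT mouse, and 0 lower. The median over the members lay between 0.00 and 0.09 when each mouse was left out (main value 0.03) and was -0.01 with quantile normalization, moves within the spread between mice. Of the 31 named members, 19 had the other sign in at least 1 alternative. No paired analysis was possible because the replicate numbers follow accession order and pair no mice. The number of arrays limits the precision, and no detection calls are in the values used here.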
